A study of Mus musculus with 2 samples.

Results

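Expression of 10 genes of the nuclear lamina and the LINC complex was followed across 2 spatial transcriptomics libraries of nude mice. They are Lmna, Lmnb1, Emd, Sun1, Sun2, Syne1, Syne2, Banf1, Tmpo and Lemd2, chosen by symbol, and all 10 of them were among the 19465 genes listed for both libraries. One library came from animals with a flat implant and 1 from animals with a micropillar implant, a surface patterned with small posts. Both were labelled as bone from nude mice, which lack a thymus and so most T cells, on fixed and embedded sections. The labels give no age, sex, time after implantation or number of animals. A spot covers several cells or parts of cells, and values are UMIs, counts of captured RNA molecules. The series title names nuclear shape, microtopography and bone regeneration, and its design text compares regenerated tissue between treatments.

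The lamina is a meshwork of lamin filaments under the inner nuclear membrane, and A-type lamins from Lmna are known to be abundant in stiff, load-bearing tissue and scarce in brain. Emerin (Emd), most LAP2 proteins (Tmpo) and LEM2 (Lemd2) are inner membrane proteins with a LEM domain, which binds the small DNA-bridging protein BAF, made from Banf1. SUN proteins (Sun1, Sun2) of the inner membrane and nesprins (Syne1, Syne2) of the outer membrane join across the envelope as the LINC complex, which ties the nucleus to the cytoskeleton.

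In the mm10 build Lmna lies at chromosome 3, 88480147 to 88509956, Emd at chromosome X, 74254687 to 74261548, and Banf1 at chromosome 19, 5364638 to 5367168. Sun1 lies at chromosome 5, 139200637 to 139249840, Sun2 at chromosome 15, 79724070 to 79742536, and Syne1 at chromosome 10, 5020917 to 5551482. Syne2 lies at chromosome 12, 75818134 to 76110926, Tmpo at chromosome 10, 91147571 to 91181315, and Lemd2 at chromosome 17, 27189600 to 27204469. Promoter sequence is shown for 3 genes on which the results turn, since Lmna and Sun2 rose and Syne1 fell in both skin and fibrous spots against brain-marker spots. Each stretch is taken from the 250 bases before the most upstream start in the RefSeq table (GRCm38.p6, the assembly of mm10), 5′ to 3′ on the minus strand, without bases of the gene's own exons. The Lmna and Syne1 stretches lie inside the longer gene spans given above, outside exons, and the Sun2 stretch lies just before its gene.
Lmna, chr3:88503387-88503602: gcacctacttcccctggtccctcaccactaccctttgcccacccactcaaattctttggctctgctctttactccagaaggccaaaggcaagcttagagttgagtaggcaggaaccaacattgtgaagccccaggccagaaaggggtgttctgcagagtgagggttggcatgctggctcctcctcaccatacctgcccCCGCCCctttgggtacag
Sun2, chr15:79742537-79742786: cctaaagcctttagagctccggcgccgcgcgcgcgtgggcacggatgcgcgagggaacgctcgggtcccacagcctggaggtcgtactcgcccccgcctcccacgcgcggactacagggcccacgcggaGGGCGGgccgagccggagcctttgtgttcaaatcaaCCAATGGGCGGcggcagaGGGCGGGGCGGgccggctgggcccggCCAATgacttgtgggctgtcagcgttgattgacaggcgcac
Syne1, chr10:5550693-5550942: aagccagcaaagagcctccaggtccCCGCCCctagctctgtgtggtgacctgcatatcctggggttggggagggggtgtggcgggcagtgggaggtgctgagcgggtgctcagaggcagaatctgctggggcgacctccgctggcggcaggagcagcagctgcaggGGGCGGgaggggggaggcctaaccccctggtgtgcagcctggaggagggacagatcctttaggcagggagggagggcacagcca
Capitals mark matches on either strand to the GC box GGGCGG, the CCAAT box CCAAT, the TATA box TATAAA and CATTCC, the core of the site of TEAD factors. Neighbouring matches can share a base. The Lmna stretch of 216 bases held 1 GC box and 1 CG pair, the Sun2 stretch 4 GC boxes, 2 CCAAT boxes and 31 CG pairs, and the Syne1 stretch 2 GC boxes and 7 CG pairs. Of 32851 RefSeq windows of 250 bases, 32.7% held a GC box, 33.8% a CCAAT box, 12.4% a TATA box and 12.6% a TEAD core. Neither of the last was present in the 3 stretches.

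Spots with at least 100 UMIs were kept, 2681 of 3161 in the flat and 3064 of 3303 in the micropillar library, with 2262763 and 3172759 UMIs. The median spot held 602 UMIs in the former and 831 in the latter. The libraries shared 2135 spot barcodes. Although the label says bone, most kept spots carried brain markers. A spot was put in a class when it had at least 3 UMIs of 5 marker lists and more than 50% of them were of 1 list. Brain-marker spots numbered 1452 and 1862 in the flat and micropillar libraries, skin-marker spots 314 and 343, and muscle-marker spots 247 and 19. Spots led by fibrous and bone lists together were called bone-marker spots when they held at least 2 UMIs of the bone list, 82 and 119 spots, and fibrous spots otherwise, 404 and 335. The classes overlap in content. Bone-marker spots had 60690 and 62675 CPM (a gene's UMIs over all UMIs of the same spots, scaled as is usual for libraries of unequal depth) of the fibrous list and 9003 and 7838 CPM of the bone list, and the osteoblast genes Ibsp, Phex and Sp7 were at 0 in the flat ones. The brain list summed to 13994 and 11772 CPM in brain spots and to between 646 and 2494 CPM in the other classes. No member is in a marker list. In a spot, fewer cells of a type and less RNA per cell cannot be told apart.

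Lmna, which encodes lamins A and C, was lowest in brain-marker spots and higher in each of the other 4 classes. In brain spots it reached 132.7 CPM (flat) and 129.4 CPM (micropillar), from 245 and 308 UMIs. Skin spots had 820 and 903 CPM, fibrous spots 949.9 and 600.1 CPM, and bone spots 583 and 746 CPM. Muscle spots had 339.9 and 1047 CPM, on only 16 and 8 UMIs. Every class outside brain lay above brain in both libraries, and the exact 95% counting intervals of brain (116.6 to 150.4 and 115.4 to 144.7 CPM) did not reach those of any other class in the same library. Among skin, fibrous and bone spots the intervals overlapped within each library except for skin and fibrous spots of the micropillar library, so the order among them was otherwise not resolved.

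**Figure D1:**
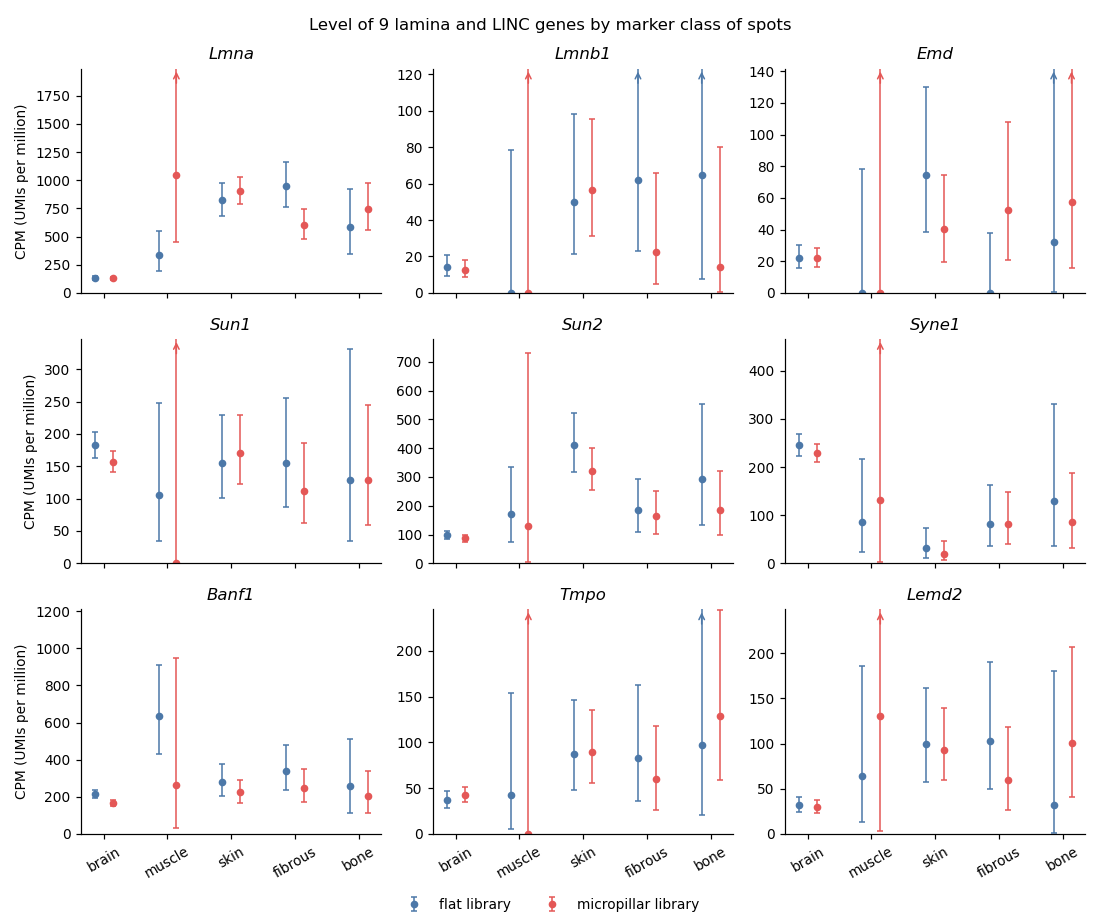
Level of 9 members in CPM (y axis, linear, from 0) in 5 marker classes of spots (x axis), flat library in blue and micropillar library in red. Points are summed counts, bars exact 95% Poisson intervals for counting error, and arrows mark bars that run past the axis. Lmna is near 130 CPM in brain and above 330 CPM elsewhere, while Syne1 is highest in brain.

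The same pattern held in a test across the libraries. Counts were summed per class and library, and each class was compared with brain in a fit with library as a block (edgeR's quasi-likelihood test, Benjamini-Hochberg over 10343 genes, threshold 0.05). The 2 libraries are the only replicates of a class and carry unlike implants. The block takes out a library difference that all classes share. Any implant difference that varies by class stays in the spread. The labels do not say from how many animals the libraries came. The fit left 4 residual degrees of freedom, and its p-values rest mainly on a spread shared across genes. A gene whose own 2 libraries disagree hardly gets a larger p-value, so a small one is not certainty from replicates. Lmna rose in skin by 2.72 on the log2 scale (SE 0.31, adjusted p = 1.06e-17), in fibrous spots by 2.55 (SE 0.31, adjusted p = 1.82e-14) and in bone spots by 2.37 (SE 0.35, adjusted p = 6.79e-10). These are 6.57-fold, 5.86-fold and 5.17-fold. In muscle it rose by 1.89 (SE 0.47, adjusted p = 0.000911). The libraries taken alone gave 1.36 and 3.02 in muscle, a wide spread, and the muscle call was lost when spots were thinned to 250 UMIs before they were classed, with a difference as large, 2.01 (adjusted p = 0.103). In skin, fibrous and bone spots the call was kept under each alternative.

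Among the 9 members tested (Syne2 was too low), the counts differed by tissue. In skin 6 members rose and 1 fell, where 28% and 25.5% of all genes tested rose and fell, and the members' median log2 difference was 1.30 against 0.06 for all genes. In fibrous spots 3 rose and 1 fell, against 20.1% and 15.3% of genes, with a median of 0.81 against 0.03. In bone spots 3 rose and 0 fell, against 13% and 9.68%, with a median of 1.21 against -0.20. In muscle 2 rose and 0 fell, against 5.62% and 9.51%, with a median of -0.09 against -1.20. Lmnb1, counted among the members that rose in skin, passed the minimum of 20 CPM only outside brain. Its presence among the genes tested depended on those classes, which favoured a rise. With TMM factors the all-gene median shifted by -0.17 in skin, -0.31 in muscle, -0.28 in fibrous and -0.44 in bone spots. The share of called genes that were higher went with it from 57.4% to 39.0% in bone, from 56.7% to 45.6% in fibrous spots and from 37.1% to 25.7% in muscle. DESeq2's size factors put the muscle share at 56.2% and its median 0.83 higher.

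**Figure D2:**
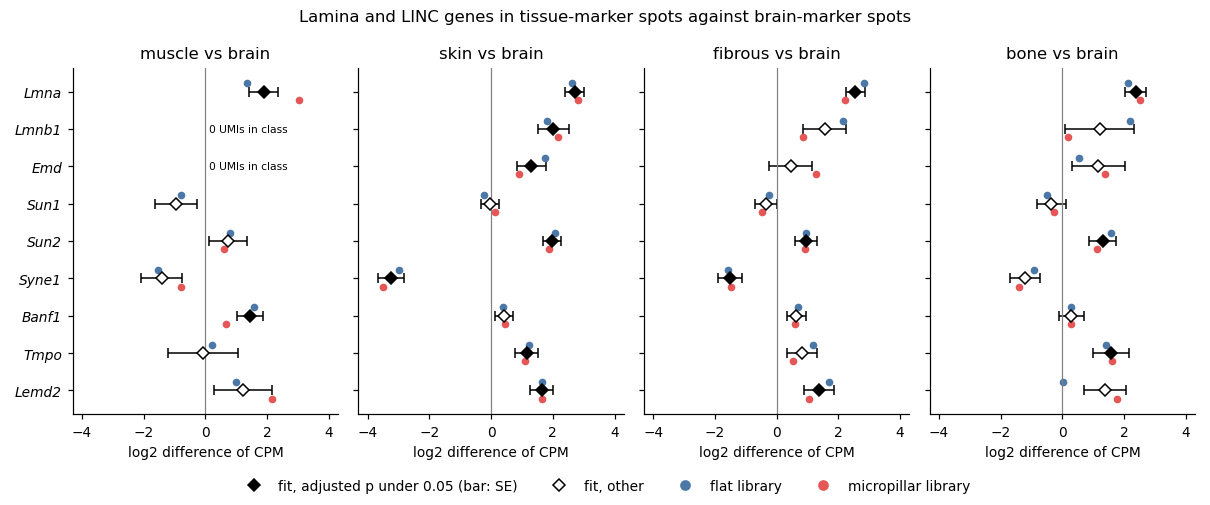
Log2 difference of CPM (x axis) between each of 4 classes and brain-marker spots for 9 members (y axis). Diamonds are the fitted differences with their SE, filled where the adjusted p is under 0.05, and dots are the flat (blue) and micropillar (red) libraries taken alone where both classes hold a UMI. Lmna lies to the right in all 4 panels and Syne1 to the left.

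Lmnb1, which encodes the B-type lamin B1, was sparse everywhere. Brain spots had 26 UMIs (flat) and 30 UMIs (micropillar), 14.1 and 12.6 CPM, and skin spots had 8 and 14 UMIs, 49.7 and 56.7 CPM. It rose in skin by 2.01 (SE 0.51, adjusted p = 0.000258), with both libraries close at 1.82 and 2.17. Being under 20 CPM in brain, it was tested because of the classes where it is high, which favoured a rise. The call in skin was lost in skin spots with no UMI of the brain list (adjusted p = 0.060). Fibrous spots had 6 and 3 UMIs and bone spots 2 and 1, and the differences of 1.55 and 1.21 did not pass the test (adjusted p = 0.068 and 0.49). Muscle spots had 0 UMIs in both libraries. A count of 0 there allows up to 63.7 CPM in the flat library, above the brain level, so a difference was not detectable at this depth. Genes of dividing cells, which include Cdk1 and Ccna2, summed to 429 and 421 CPM in skin against 47.7 and 37.8 CPM in brain, to 248 and 270 CPM in fibrous and 453 and 215 CPM in bone spots. All 8 measured genes of that list were at 0 in flat muscle spots, and Mki67 was at 0 in flat brain spots and in fibrous and bone spots of both libraries. Their part in the Lmnb1 difference was not tested.

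The ratio of Lmna to Lmnb1 UMIs was about 10 in brain and higher in most other classes, but within counting error. A ratio between genes also holds how well each is captured, so only its difference between classes is described. Brain spots had 9.42 in the flat library (6.28 to 14.7) and 10.3 in the micropillar library (7.05 to 15.5). Skin spots had 16.5 (8.13 to 39.0) and 15.9 (9.30 to 29.6), the latter 31.0 in spots with no UMI of the brain list, and fibrous spots 15.3 (6.78 to 42.9) and 26.7 (8.80 to 132.0). Bone spots had a ratio of 9.0 (2.15 to 80.0), from 18 against 2 UMIs, in the flat library, below that of brain. In the micropillar library they had 52 against 1 UMI (8.93 to 2093). In the split of skin described below, hair follicle spots had 11.3 (3.56 to 57.7) and 6.33 (3.11 to 14.6) in the flat and micropillar libraries. The other skin spots had 19.6 (8.12 to 61.7) and 33.2 (13.9 to 104), and the fold over brain was worked out only for skin taken whole. With both libraries summed, the ratio was 1.63-fold that of brain in skin (0.96 to 2.86), 1.93-fold in fibrous (0.92 to 4.54) and 2.36-fold in bone spots (0.74 to 12.1). All 3 intervals included 1, and muscle, with 24 against 0 UMIs, gave only a lower limit of 0.59-fold. Over the whole section the counts were 527 against 48 UMIs in the flat library (8.16 to 15.1) and 765 against 52 UMIs in the micropillar library (11.1 to 19.9), and these intervals overlapped.

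**Figure D3:**
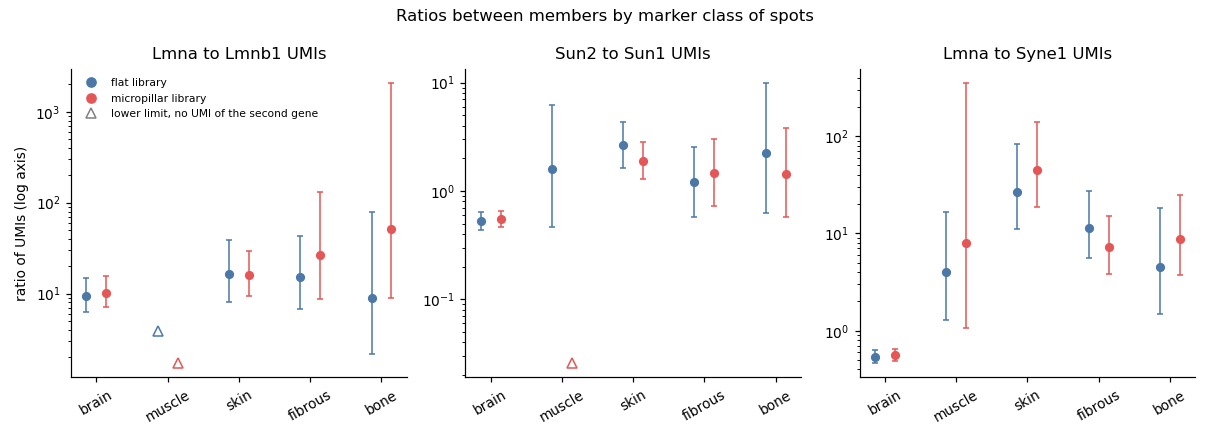
Ratios of UMIs between members (y axes, log scale) in 5 marker classes (x axes), flat library in blue and micropillar library in red, with exact 95% intervals for counting error. Open triangles are lower limits where the second gene had no UMI. The Lmna to Lmnb1 intervals overlap between classes, while Sun2 to Sun1 and Lmna to Syne1 are lower in brain than in skin.

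Relative to Sun1, Sun2 was higher in skin, fibrous and bone spots than in brain. Sun2, an inner membrane SUN protein gene, had 97.0 and 86.6 CPM in brain spots of the flat and micropillar libraries and 410 and 320 CPM in skin. Fibrous spots had 186 and 165 CPM, bone spots 291 and 187 CPM and muscle spots 170 and 131 CPM. It rose in skin by 1.98 (SE 0.28, adjusted p = 1.48e-11), in fibrous spots by 0.93 (SE 0.35, adjusted p = 0.026) and in bone spots by 1.31 (SE 0.44, adjusted p = 0.016). In muscle, on 8 and 1 UMIs, the difference of 0.74 did not pass (adjusted p = 0.45). The fibrous call held under 8 of 13 alternatives and the bone call under 9 of 13, with adjusted p up to 0.19 and 0.71. Both were lost with TMM scaling and with thinned spots.

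Sun1, its paralogue, did not pass the test in any class. It had 182.5 and 156 CPM in brain, 155 and 170 CPM in skin, 155 and 113 CPM in fibrous and 129.5 and 129.2 CPM in bone spots. The fitted difference in skin was -0.03 (SE 0.30), and in fibrous and bone spots -0.36 for each. The ratio of Sun2 to Sun1, added after the data were seen, was 0.53 (0.44 to 0.64) and 0.55 (0.46 to 0.66) in brain spots of the flat and micropillar libraries. In skin it was 2.64 (1.64 to 4.37) and 1.88 (1.28 to 2.80), in fibrous spots 1.20 and 1.47 and in bone spots 2.25 and 1.44. Against brain it was 4.96-fold (2.97 to 8.50) and 3.39-fold (2.21 to 5.26) in skin, and with both libraries summed 2.45-fold (1.46 to 4.15) in fibrous and 3.11-fold (1.48 to 6.81) in bone spots. Each of these intervals excluded 1, for counting error only, while that of muscle, 3.31-fold with both libraries summed (0.99 to 12.7), included it.

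Syne1, which encodes nesprin-1, moved the opposite way to Lmna. Brain spots had 245.4 and 229 CPM, from 453 and 544 UMIs, and skin spots 31.1 and 20.3 CPM, from 5 UMIs in each library. Fibrous spots had 82.6 and 82.5 CPM, bone spots 130 and 86.1 CPM and muscle spots 85.0 and 131 CPM. It fell by 3.24 in skin (SE 0.43, adjusted p = 4.06e-13) and by 1.51 in fibrous spots (SE 0.39, adjusted p = 0.000533), both under every alternative. The differences of -1.22 in bone (adjusted p = 0.058) and -1.42 in muscle (adjusted p = 0.14) did not pass. Bone was past the threshold under 6 alternatives, DESeq2 and TMM scaling among them. Of all Syne1 UMIs, 94.4% (flat) and 89.0% (micropillar) lay in brain spots, which held 81.6% and 75.0% of all UMIs. For Lmna those shares were 46.5% and 40.3%. Syne2, the nesprin-2 gene, had 2 and 6 UMIs in all kept spots of the flat and micropillar libraries, too few for any comparison.

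**Figure D4:**
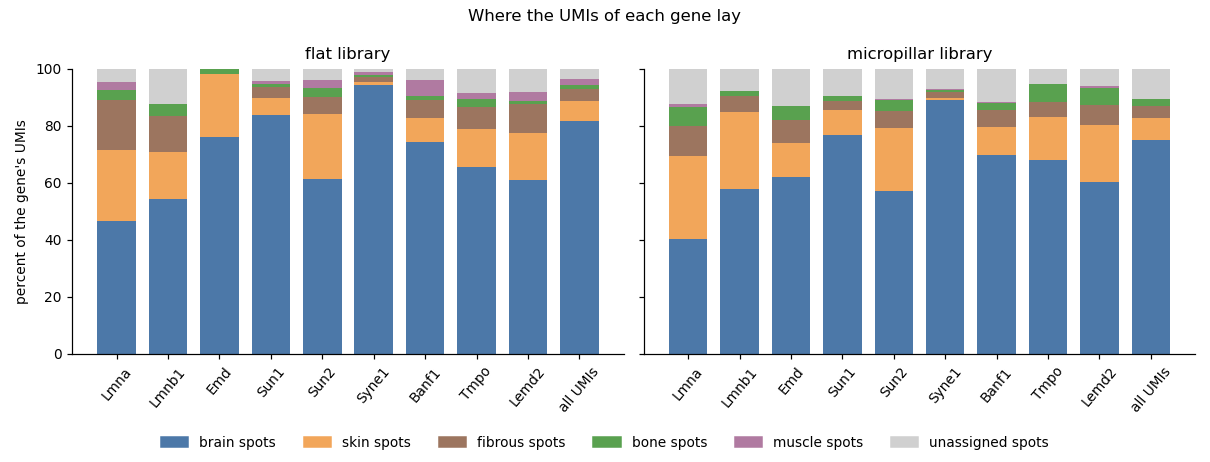
Percent of each member's UMIs (y axis, stacked to 100) found in each marker class, for 9 members and for all UMIs (x axis), in the flat (left) and micropillar (right) library. Brain spots hold 94.4% and 89.0% of Syne1 UMIs but 46.5% and 40.3% of Lmna UMIs.

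Genes of the LEM-domain proteins rose in some classes. Lemd2 had 32.0 and 29.4 CPM in brain and 99.4 and 93.2 CPM in skin, a rise of 1.64 (SE 0.37, adjusted p = 3.83e-05). In fibrous spots it had 103 and 60.0 CPM and rose by 1.36 (SE 0.48, adjusted p = 0.017), a call kept under 9 of 13 alternatives. In bone spots it had 1 and 7 UMIs, and its difference of 1.38 did not pass (adjusted p = 0.14) except when 1 UMI of the bone list was enough for a bone spot (1.42, adjusted p = 0.025). Tmpo, whose LAP2 products bind lamins and chromatin, had 36.8 and 42.0 CPM in brain and 87.0 and 89.1 CPM in skin, a rise of 1.15 (SE 0.37, adjusted p = 0.0048). In bone spots Tmpo had 3 and 9 UMIs and rose by 1.57 (SE 0.58, adjusted p = 0.034), but 7 of 13 alternatives ended that call, with adjusted p up to 0.92. Emd had 22.2 and 21.9 CPM in brain and 74.6 and 40.5 CPM in skin, a rise of 1.30 (SE 0.47, adjusted p = 0.012) that 3 of 10 alternatives ended, with adjusted p up to 0.15. Emd had 0 UMIs in flat fibrous spots, which allows up to 31.0 CPM, and 7 in micropillar ones, and it had 0 UMIs in muscle spots of both libraries.

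Banf1, the BAF gene, passed the test in muscle. It had 212.3 and 165 CPM in brain, 280 and 223 CPM in skin, 341 and 248 CPM in fibrous and 259 and 201 CPM in bone spots. None of these 3 differences passed the test (0.42, 0.63 and 0.29, adjusted p = 0.23, 0.10 and 0.68). In fibrous spots with no UMI of the brain list, however, Banf1 rose by 0.89 (adjusted p = 0.019). In muscle it had 30 and 2 UMIs, 637 and 262 CPM, and rose by 1.45 (SE 0.41, adjusted p = 0.0053). That rested mainly on the flat library, where it was 1.59 against 0.67 in the micropillar library, and was lost with TMM scaling and with thinned spots (adjusted p up to 0.45).

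Between bone-marker and fibrous spots no difference of a member passed the test, which few genes of any kind did. In edgeR's test, as in DESeq2's, 0 rose and 0 fell, where 0.0875% and 0.0194% of all genes rose and fell, and 0 had an unadjusted p under 0.05. The errors were wide, up to an SE of 1.10 for Lmnb1, so like levels are not shown. Lmna differed by -0.18 (SE 0.35), and the libraries alone went opposite ways, -0.70 in the flat and 0.31 in the micropillar one. Sun2 differed by 0.38 (SE 0.47), Tmpo by 0.76 (SE 0.65) and Banf1 by -0.34 (SE 0.45). Bone spots also held 3660 and 2928 CPM of the neutrophil list (10 of 10 genes present in both libraries), against 1353 and 615 CPM in fibrous spots, and 16711 and 5211 CPM of the erythroid list, against 6494 and 3503 CPM. In fibrous and bone spots with no UMI of either list, Lmna was above brain by 2.67 and 2.54 (edgeR adjusted p = 1.69e-14 and 0.000915). Such bone spots numbered 25 and 28 in the flat and micropillar libraries, with 8322 and 11000 UMIs. The Sun2 and Tmpo calls in bone and the Sun2 and Lemd2 calls in fibrous spots were lost there. At this depth, spots with no such UMI can still hold marrow cells, and their part in the Lmna level was not tested.

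Splits within skin and brain were added after the data were seen. In skin, Sun2 was higher and Lmna lower in hair follicle spots. Where the 5 hair follicle genes held more than 50% of the skin-list UMIs, Sun2 had 687 and 467 CPM, against 265 and 215 CPM in the other skin spots, called epidermis here. Lmna had 615 and 554 CPM in follicle spots against 928 and 1153 CPM in epidermis spots. The log2 differences of follicle over epidermis were 1.37 (0.63 to 2.13) and 1.12 (0.44 to 1.82) for Sun2 and -0.59 (-1.20 to -0.02) and -1.06 (-1.52 to -0.61) for Lmna. Both were past 1.5-fold in the same direction in both libraries, as were 23% of genes. Where the 3 myelin genes held more than 50% of the brain-list UMIs, Sun1 and Syne1 were lower than in the other brain spots, at -0.64 and -0.60 for Sun1 and -0.85 and -0.55 for Syne1. Both Sun1 values and the flat Syne1 value were past 1.5-fold, the micropillar Syne1 value was not, and 14.4% of genes were past it in the same direction in both libraries. Sun2 was at -0.43 and -0.47 and Lmna at -0.14 and -0.02, each with an interval that included 0.

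Between the implants, 0 of 9 members with at least 20 UMIs differed by 1.5-fold over the whole section, where 15.4% of genes did. With 1 library a group there is no test, and intervals are exact and cover counting error only. Lmna stood at 233 CPM with the flat and 241 CPM with the micropillar implant, and its ratio of micropillar over flat was 0.05 on the log2 scale (-0.11 to 0.21). Banf1 was the lowest, with 234 and 177 CPM and a ratio of -0.40 (-0.58 to -0.23), and Sun1 had 178 and 153 CPM, -0.22 (-0.42 to -0.03). Below 0 lay 6 members and above it 3, with a median of -0.19 against 0.06 for all genes. With each spot given equal weight, Lmna was at -0.27, Banf1 at -0.64, Syne1 at 0.13 and Sun1 at 0.00034. In spots with at least 500 UMIs Lmna was at 0.34, above its counting interval, so its sign depended on how spots were weighted.

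Within brain spots 8 of 9 members were lower in the micropillar library, with a median of -0.12 against 0.06 for all genes, and 0 of 9 were past 1.5-fold, where 15.4% of genes were. Banf1 was at -0.37 (-0.57 to -0.16) and Sun1 at -0.22 (-0.44 to -0.01), the 2 members whose intervals excluded 0. The sum of all 10 was at -0.16 (-0.25 to -0.07). In skin spots 1 of 8 members was past it, Emd at -0.88 (-2.25 to 0.46), against 26.8% of genes. Lmna in skin was at 0.14 (-0.18 to 0.46). In bone spots 1 of 3 was past it, Sun2 at -0.64 (-1.98 to 0.76), against 37.4% of genes, and Lmna was at 0.36 (-0.44 to 1.22), from 18 and 52 UMIs.

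In fibrous spots Lmna was lower in the micropillar library. It had 92 UMIs in 76 of 404 flat spots and 80 UMIs in 67 of 335 micropillar spots, 949.9 and 600.1 CPM, and the ratio on the log2 scale was -0.66 (-1.11 to -0.21). It was the 1 of 4 members past 1.5-fold, where 41.3% of genes were, so a difference of this size was common there. That share takes in genes with as few as 20 UMIs over both libraries. It is not matched to the count of Lmna, and how common such a difference is among genes counted as well was not tested. The sum of all 10 members was at -0.48 (-0.78 to -0.18). In the same spots the brain list rose from 1146 to 2243 CPM between the flat and micropillar libraries, the neutrophil list went from 1353 to 615 CPM, the erythroid list from 6494 to 3503 CPM and the endothelium list from 589 to 315 CPM. The fibrous list itself went from 55980 to 44484 CPM and the macrophage list from 3469 to 2978 CPM. In fibrous spots with no UMI of the brain list Lmna was at -0.52, inside 1.5-fold, and the part of the other lists was not tested. In muscle spots both members with 20 UMIs were past 1.5-fold, where 46.8% of genes were. Lmna was at 1.62 (0.19 to 2.93) and Banf1 at -1.28 (-4.39 to 0.70), from 8 and 2 UMIs in the micropillar library. With TMM factors within the class these became 0.53, inside 1.5-fold, and -2.37.

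**Figure D5:**
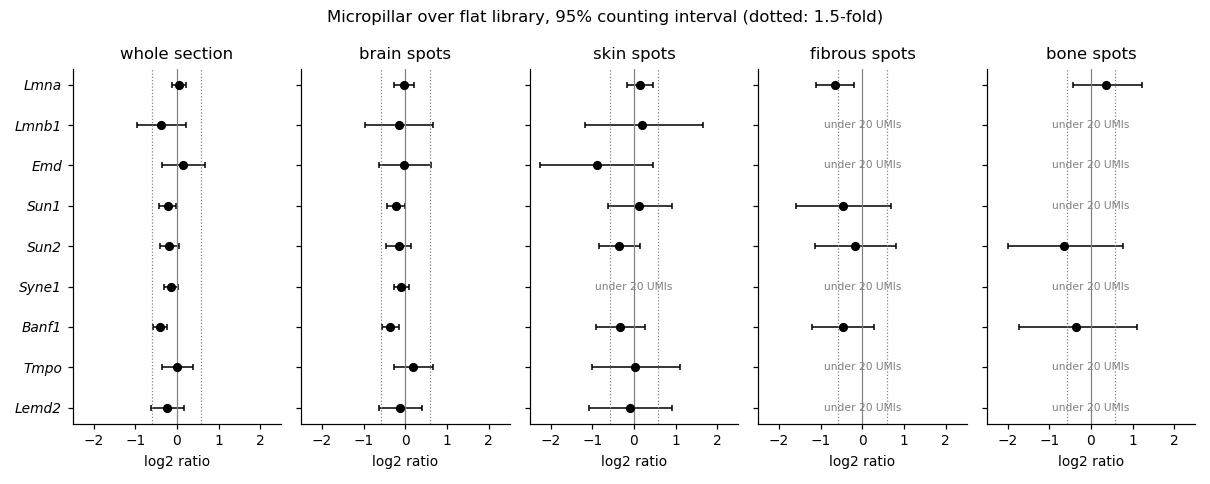
Log2 ratio of micropillar over flat library (x axis) for 9 members (y axis), over the whole section and within 4 marker classes, with exact 95% intervals for counting error. Dotted lines mark 1.5-fold. Over the section and in brain spots all points lie within the dotted lines, and in fibrous spots Lmna is at -0.66.

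Other genes of the nuclear envelope were counted in the same way. Of 23 measured genes in a list of lamin processing enzymes, envelope proteins, linkers and nucleoporins, 19 could be tested. In skin 6 rose and 2 fell, in fibrous spots 3 rose and 2 fell, in bone spots 2 rose and 0 fell, and in muscle 1 rose and 1 fell. Their medians were 0.20, 0.07, 0.06 and -0.31, and bone against fibrous spots gave 0 calls. Against these stand the shares of all genes given above, 28% and 25.5% in skin and 20.1% and 15.3% in fibrous spots. They were 13% and 9.68% in bone spots and 5.62% and 9.51% in muscle. The list's counts do not clearly exceed these shares. Tmem43 and Syne3 were under 20 CPM in brain and so were tested because of the classes where they are high, which had to differ. Both are in the counts of genes that rose in skin and fibrous spots, and no other gene of the list rose in bone spots. Tmem43, which encodes the inner membrane protein LUMA, had 11.9 and 13.0 CPM in brain and 87.0 and 130 CPM in skin and rose by 3.12 (SE 0.40, adjusted p = 7.59e-14). Syne3, the nesprin-3 gene, rose most in fibrous and bone spots, by 3.63 and 4.31 (edgeR adjusted p = 0.0035 and 0.0082), on 6 and 4 UMIs in all. Plec, which encodes the cytoskeletal linker plectin and had the most UMIs of the list in muscle, skin, fibrous and bone spots with both libraries summed, had 190 and 168 CPM in brain. It had 616 and 655 CPM in muscle and rose there by 1.83 (SE 0.41, adjusted p = 0.000142). Tmem201, an inner membrane protein gene, was the lowest of those that passed the test in skin and fibrous spots, falling by 1.85 and 2.02 (adjusted p = 0.000964 and 0.0096). Chmp7, of the envelope-sealing ESCRT machinery, had 0 UMIs in muscle spots of both libraries and 103 and 106 CPM in brain, and it was lower there (edgeR adjusted p = 0.031). Zmpste24, the protease that matures lamin A, passed in no class and had 175 and 182 CPM in brain and 149 and 134 CPM in skin.

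Over the 10 sums of classes and libraries, the genes with levels most like those of Lmna among 10287 were Vasn, Nfkb1, Rin2, Rnase4 and Cbfb. Pearson's r of log2(CPM + 1) was between 0.97 and 0.99, a description over sums that share libraries and depth. In the sum of micropillar muscle spots the 1047 CPM of Lmna came from 8 UMIs. Vasn, Rin2, Rnase4 and Cbfb each had 262 CPM there, the level that 2 UMIs give, so the ranking leans on very few UMIs. Among the members Lemd2 was nearest, with r = 0.84, followed by Sun2 with 0.69, and Syne1 was farthest, with -0.68.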

How the data were processed

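Each library's deposited matrix gives unnormalized UMI counts by gene and spot. Space Ranger 2.0.1 wrote them, per the file headers. Cell Ranger 7.2.0 and mm10 appear in the submitters' processing notes. How probes or reads were assigned to genes is not given in the sources used here. Of 11 symbols on 2 rows the row with more counts was used. Summed counts were expressed as CPM. Classes were compared with edgeR 4.0.16 on 10 sums (library totals as sizes, genes with 20 CPM in 1 class and 10 UMIs in all), with DESeq2 1.42.0 as an alternative, in R 4.3.3. SEs were derived from the F statistic. Intervals are exact (Poisson or Clopper-Pearson, 95%, scipy 1.17.1) and cover counting error only. A count of 0 was taken to allow 3. The edgeR procedure was run on simulated data for bone against brain spots only. No gene differed between libraries there, and the sparsest genes were left unchanged. That run does not bear on libraries that disagree or on differences of the sparsest genes. Coordinates come from GENCODE M21. Lists with no entry in the table lost Bglap2 (bone), Hba-a1 (erythroid), Ccnb1 and Rrm2 (dividing cells) and Lmnb2 and Lbr (envelope).

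All members were named. Of the envelope list, the genes with the most UMIs and the highest and lowest passing difference per contrast were named, and Zmpste24 also, after its values were seen. Members, lists and classes were chosen with earlier results of these data known, and alternatives without muscle sums or without brain- or marrow-list UMIs were added after seeing the data. Macrophage genes summed to 274 and 278 CPM in brain and 3469 and 2978 CPM in fibrous spots. Spot positions were not used.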

Additional observations from a re-analysis of the deposited data

Results flagged for a closer look

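The ratio of micropillar over flat for Lmna went opposite ways in 2 classes. It was 1.62 on the log2 scale in muscle spots and -0.66 in fibrous spots, each with a counting interval that excluded 0. The difference between the classes was not tested, since each has 1 library a group, and the muscle value rests on 16 and 8 UMIs and fell to 0.53 with TMM factors within the class.

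Spots under 100 UMIs, which enter no comparison, held member UMIs above the 3 counts that a count of 0 allows. Lmna had 654 CPM in such flat spots, from 15 UMIs, and 391 CPM in such micropillar spots, from 6 UMIs. Sun1 and Syne1 had 174 CPM each in the flat ones, and Banf1 had 261 CPM in the micropillar ones.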

How the results depend on the processing

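Lmna in skin, fibrous and bone spots, Syne1 in skin and fibrous spots, and Sun2, Tmpo and Lemd2 in skin stayed past the threshold in the same direction under each alternative run. Counts of members moved in sparse classes. Thinning to 250 UMIs left 0 higher in muscle, 1 in fibrous and 1 in bone spots, and TMM factors left 1 higher in each of those. Of 10288 genes, TMM factors left 436 higher in muscle, 1725 in fibrous and 1027 in bone spots. Skipping the brain list left 1 higher in bone spots, skipping the marrow lists 1 in fibrous and 1 in bone spots, and a bone minimum of 1 UMI 1 in fibrous spots. Under TMM factors, DESeq2, no library block, no muscle sums, a 70% majority or a bone minimum of 1 UMI, 1 member (Syne1) was lower in bone spots. Of 10288 genes, 1604 were lower there with TMM factors and 759 with DESeq2. For the other alternatives named here the share of all genes was not counted, so their counts are no result about the members.

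Between implants, members past 1.5-fold became 1 over the section with equal spot weight. In muscle they became 0 with at least 200 UMIs a spot, 0 when thinned, 1 with no brain-list UMI and 1 with TMM factors. In fibrous spots they became 2 with at least 200 UMIs, 4 when thinned, 0 with no brain-list UMI, 3 with a 70% majority and 2 with a bone minimum of 1. In bone spots they became 2 with at least 200 UMIs, and in skin 0 with a 70% majority. The Lmna to Lmnb1 ratio in micropillar skin spots became 31.0 with no brain-list UMI.

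Reversed directions were all of differences that had not passed the test. For bone against fibrous spots, Lmna became 0.075 (thinned), 0.14 (no brain-list UMI) and 0.11 (bone minimum 1), and Lmnb1 0.80 (thinned) and 0.22 (bone minimum 1). Sun1 became -0.027 (200 UMIs), -0.47 (thinned), -0.16 (TMM), -0.24 (bone minimum 1) and -0.018 (no block), and Banf1 0.56 (thinned) and 0.37 (no marrow-list UMI). Emd became -0.23 and Lemd2 -0.55 with no brain-list UMI, Lemd2 -0.14 (TMM), -0.29 (bone minimum 3) and -0.49 (no marrow-list UMI), Tmpo -0.86 (no marrow-list UMI) and Syne1 -0.20 (bone minimum 1). Against brain, Sun1 became 0.28 in muscle (thinned), 0.043 (70% majority) and 0.034 (marker genes left out) in skin and 0.16 in bone (bone minimum 3). Tmpo in muscle became 0.34 (no brain-list UMI), 0.016 (70% majority) and 0.10 (marker genes left out), Banf1 in bone -0.088 (no brain-list UMI) and -0.16 (TMM), Emd in fibrous spots -0.35 (70% majority) and Lmnb1 in bone -5.70 (no marrow-list UMI), where few UMIs were left. The cause of these changes was not tested.

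No paired analysis was possible because each implant has 1 library. Leaving out either library leaves 1 sum per class and so a value with no test. UMI counts set the limits: muscle holds 24 Lmna UMIs over both libraries and bone 3 Lmnb1 UMIs.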
